A study of Mus musculus with 12 samples.

Results

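Gene-desert CTCF sites were taken here as ChIP-seq peaks whose summit lay outside every annotated gene body and more than 100 kb from every start site of a protein-coding gene in mm10. Of 183882 peak regions in 6 lists, 11229 met this rule. After regions that overlapped between lists were merged, 3824 of 56248 sites (6.80%) were desert sites, classed by the strongest summit of each site. A further 5 merged sites held a desert peak but were classed elsewhere by their strongest summit. The median desert site lay 204727 bp from the nearest protein-coding start site, 525 sites lay over 500 kb away, 98 lay over 1 Mb away, and the farthest lay 2543501 bp away.

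CTCF had been profiled in brain, heart and lung of C57BL/6 mouse embryos at E18.5 that were wild type or homozygous for R567W, a CRISPR/Cas9-made arginine-to-tryptophan change in a zinc finger of CTCF. Each organ and genotype was represented by 1 ChIP library, to which chromatin of HEK293T, a human embryonic kidney cell line, had been added as a spike-in. The question of the comparison is which sites CTCF occupies in each organ and genotype. No difference between genotypes within an organ has a replicate check, the number of embryos behind a library was not given in the sources used here, and intervals cover counting error only.

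CTCF binds DNA through a row of zinc fingers that reads a core motif, and at some sites the last fingers also read a shorter upstream motif. It halts cohesin as cohesin extrudes chromatin, so that pairs of CTCF sites anchor loops and the borders of topological domains, and the strand of the motif sets the side on which cohesin is halted. Gene deserts are long stretches without protein-coding genes. Several of them flank developmental regulators and hold their distant enhancers, and others separate large neural adhesion genes.

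The 7 sequences below show the motif at sites that the later comparisons turn on. Each is read 5′ to 3′ on the strand of the core motif from RefSeq GRCm38, the build of the files, with the 30 bases before the core motif in lower case and its 19 bases in capitals. The first 3 are the sites listed in all 6 libraries that lie farthest from a start site, the next is a site of very high pileup listed in all 6, and the last 3 are the strongest sites with a peak in every wild-type organ and in no mutant organ. The coordinates are those of the printed bases.
Zeb2 desert, chr2:46444110-46444158, minus strand: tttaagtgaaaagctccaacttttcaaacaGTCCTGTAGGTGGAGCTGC
Gata3 desert, chr2:8674161-8674209, plus strand: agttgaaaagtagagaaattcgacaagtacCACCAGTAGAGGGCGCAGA
Gata3 desert, chr2:8754294-8754342, plus strand: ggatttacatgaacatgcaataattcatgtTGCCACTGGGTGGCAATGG
Caln1 desert, chr5:130853527-130853575, minus strand: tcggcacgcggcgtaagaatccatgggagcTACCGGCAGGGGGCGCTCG
Nnt desert, chr13:119283587-119283635, plus strand: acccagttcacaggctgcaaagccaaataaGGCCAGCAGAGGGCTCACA
Camk1g desert, chr1:193699037-193699085, plus strand: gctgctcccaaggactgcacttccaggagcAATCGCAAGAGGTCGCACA
Insc desert, chr7:114922325-114922373, plus strand: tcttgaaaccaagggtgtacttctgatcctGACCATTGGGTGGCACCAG
The upstream motif was searched as TGCAGTNCC on the strand of the core motif within the 30 printed lower-case bases. At the Camk1g site it was present with 1 mismatch and at the Nnt site with 2, each ending 6 bp before the core motif. The closest match at the Insc site had 3 mismatches, and those at the Zeb2 site, the Gata3 sites and the Caln1 site had between 3 and 5. A further strong site listed in all 6 libraries, near Epb41l4a and not printed, had the same call as the Nnt site. Its match had 2 mismatches and ended 6 bp before the core motif, so these few sites do not separate listed from lost sites by the upstream motif.

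Desert peaks were few for the sequence that could hold them. The rule covered 774 Mb, or 29.2% of the 2648 Mb of known sequence. Desert peaks made up 7.15% of the wild-type brain list (2577 of 36034 regions), 5.99% of the wild-type heart list (1261 of 21059) and 6.30% of the wild-type lung list (2796 of 44386). In the mutant lists the share was 6.07% in brain (2332 of 38390), 4.46% in the heart (514 of 11515) and 5.38% in the lung (1749 of 32498). The share was thus lower in the mutant list of every organ. In percentage points, mutant minus wild type was -1.08 for brain (95% Newcombe interval, -1.44 to -0.720), -1.52 in the heart (-2.01 to -1.02) and -0.917 in the lung (-1.25 to -0.582). With 3 organs the sign-flip permutation test (exact, two-sided) cannot go below p = 0.25, which is the value it gave.

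Per Mb, wild-type desert sequence held 3.33 peaks in brain, 1.63 in the heart and 3.61 in the lung, against 17.9, 10.6 and 22.2 in the rest of the genome. Mutant desert sequence held 3.01, 0.664 and 2.26 peaks per Mb, against 19.2, 5.87 and 16.4. The log2 ratio of desert to remaining density was -2.74 ± 0.24 (SD, n = 6 lists) and negative in 6 of 6 lists. Its exact two-sided sign-flip permutation p was 0.031, the smallest that 6 lists allow, and 0.0813 after Benjamini-Hochberg adjustment over the 13 tests made, and since 7 of the 13 rest on 3 organs, the lowest adjusted p that the design allows is 0.0677, so no test here could pass 0.05 after adjustment. The 6 lists share 1 genome, and such a p covers the spread between libraries only.

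The peaks thinned further with distance. In brain, wild-type density was 8.47 peaks per Mb in intergenic sequence 90 to 100 kb from a start site, just outside the rule, and 6.81 just inside it at 100 to 110 kb. It was 3.40 at 200 to 300 kb, 1.80 at 500 to 1000 kb and 0.979 beyond 1000 kb. In lung the corresponding values were 9.68, 8.50, 3.75, 1.46 and 0.718, and in heart 4.64, 3.90, 1.68, 0.527 and 0.326. The share of wild-type peaks that overlapped a mutant peak of the same organ also differed with distance. It was 76.3% at 100 to 110 kb in brain (95% Wilson interval, 69.8 to 81.7) and 58.3% at 500 to 1000 kb (52.7 to 63.7), 65.3% (59.1 to 71.0) and 41.4% (35.4 to 47.6) in lung, and 43.2% (34.4 to 52.5) and 23.3% (15.8 to 33.1) in heart. Beyond 1000 kb the share was 69.3% of 75 peaks in brain, 45.5% of 55 in lung and 20.0% of 25 in heart, with wide intervals that reach those of the bins before. Median pileup fell along with it, from 48 fragments at 100 to 110 kb to 29 at 500 to 1000 kb in wild-type brain and from 60.5 to 38 in wild-type lung, and its part in the lower share was not tested across distance. The plot of density and overlap by distance shows these bins for each organ.

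**Figure D1:**
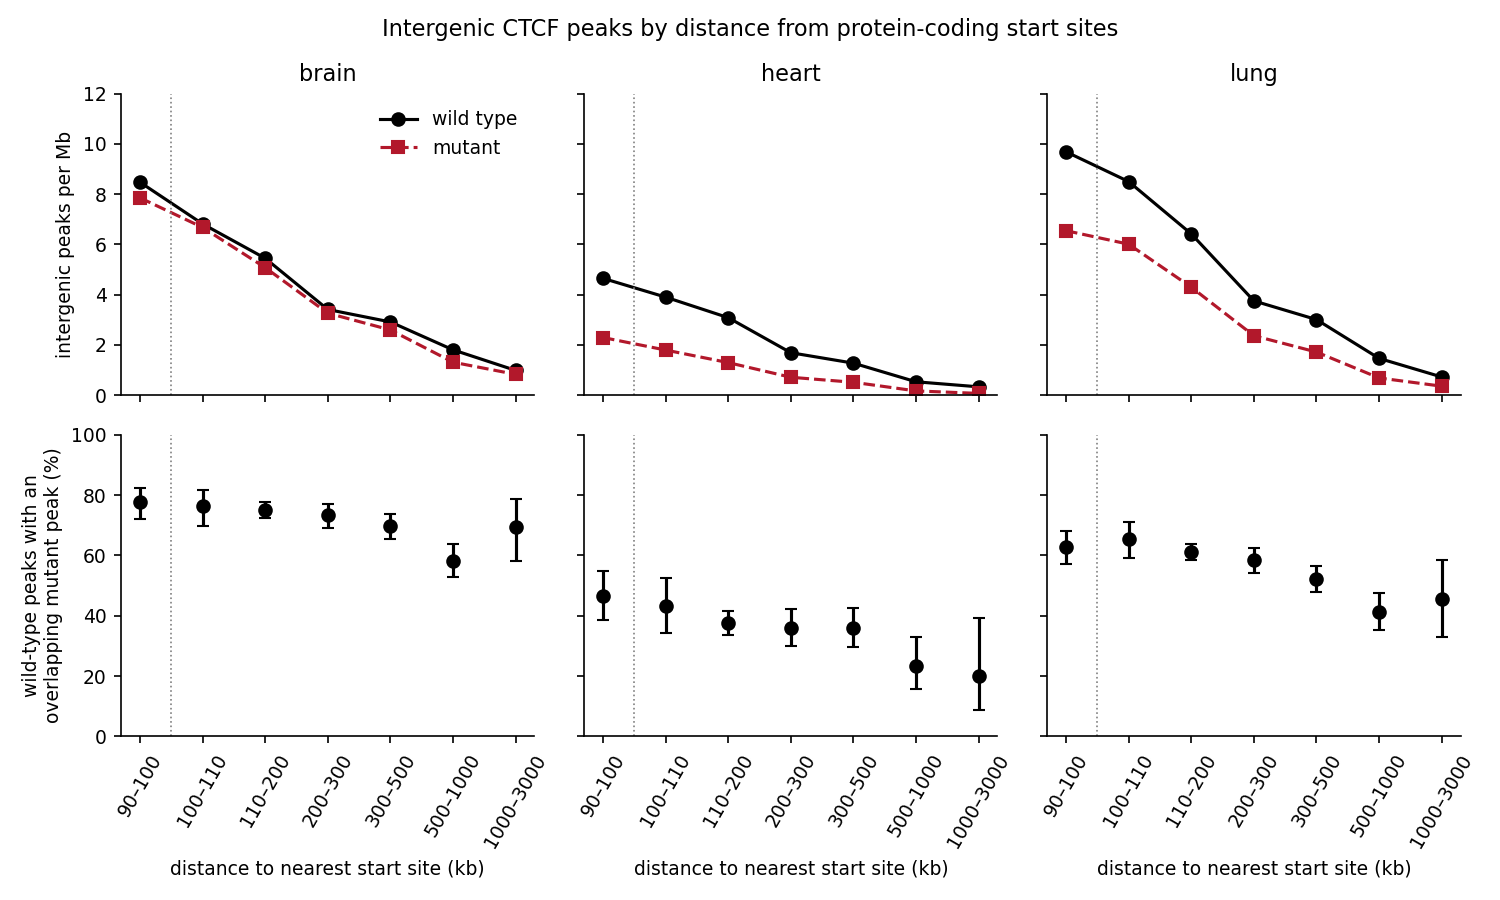
The upper row plots intergenic CTCF peaks per Mb, wild type as circles and mutant as squares, and the lower row the share of wild-type peaks with an overlapping mutant peak in percent with 95% Wilson intervals, by distance to the nearest protein-coding start site in kb; the dotted line marks the 100 kb rule. In wild-type brain the density went from 6.81 peaks per Mb at 100 to 110 kb to 0.979 beyond 1000 kb.

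The strength of a peak was measured as its summit pileup, the number of fragments that cover the summit, which was recovered from the peak caller's fold enrichment and p-value and divided by the genome-wide background of its list. Desert peaks were weaker than other intergenic peaks, those outside gene bodies within 100 kb of a start site but not within 1 kb. The median pileup was 40 fragments against 49 in wild-type brain, 26 against 30 in wild-type heart and 51 against 76 in wild-type lung. In the mutant lists it was 32 against 41, 29 against 33 and 41 against 60. On the log2 scale the difference of medians was -0.36 ± 0.17 (SD, n = 6 lists) and negative in 6 of 6 lists (exact sign-flip permutation p = 0.031, adjusted p = 0.0813). In the wild-type lung library the local background at desert peaks was 2.04 times the genome background, against 1.00 to 1.13 times in the other 5 lists. It was raised in that library at other intergenic peaks (2.72 times) and gene-body peaks (2.38 times) too, which lowers fold enrichment there but not pileup.

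Weaker desert peaks still carried the core motif. It was called, at p of 1e-04 per position within 100 bp of the summit, in 94.6% of wild-type brain desert peaks, 95.7% in the heart and 94.5% in the lung, and in 93.5%, 97.9% and 96.7% of the mutant ones. Windows 1100 bp beside the same summits were called in 7.76% to 10.3%. The difference from other intergenic peaks averaged -0.89 percentage points and was negative in 5 of 6 lists, with mutant lung the exception (exact sign-flip permutation p = 0.09375, adjusted p = 0.203). At a stricter p of 1e-05 it averaged -3.28 percentage points, and within deciles of pileup -0.22 (exact permutation p = 0.625).

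The upstream motif, with at most 2 mismatches, was found at 24.8% of wild-type brain desert peaks with a core motif (604 of 2437), 22.8% in the heart (275 of 1207) and 26.3% in the lung (694 of 2642). Among other intergenic peaks the shares were 29.0%, 27.4% and 29.2%. In the mutant lists, 22.7%, 17.1% and 20.2% of desert peaks carried it, against 26.2%, 23.5% and 26.0% of other intergenic peaks. A mirrored window on the other side of the core motif, used as a background, held it at 9.82% to 12.3% of desert peaks and 12.6% to 13.9% of other intergenic peaks. Desert minus other intergenic was -4.59 ± 1.33 percentage points (SD, n = 6 lists), lower in 6 of 6 lists (exact sign-flip permutation p = 0.031, adjusted p = 0.0813). The mirrored window was also lower in desert peaks in 6 of 6 lists, with a mean difference of -2.26 ± 0.71 percentage points (SD, n = 6 lists), and how far the upstream difference exceeds it was not tested. Over 50 kb from a start site the upstream difference was -2.74, and with at most 1 mismatch it was -3.02. Where a match had at most 1 mismatch, 75.2% of 238 matches in wild-type brain desert peaks ended 6 bp before the core motif and 13.4% ended 7 bp before it. The share at 6 bp was 59.3% of 81 matches in wild-type heart and 76.1% of 276 in wild-type lung. In the mutant lists it was 77.2% of 193 in brain, 55.6% of 18 in heart and 66.4% of 107 in lung.

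The sequence around desert summits was also poorer in G and C and, in most lists, in repeats. The 201 bp around a summit held 45.6% to 47.4% G and C in desert peaks of the 6 lists, and desert minus other intergenic was between -2.8 and -2.2 percentage points. Windows that were mostly repeat made up 7.30% of wild-type brain desert peaks against 14.4% of other intergenic ones, and 9.44% against 16.9% in wild-type lung. In mutant heart the shares were 1.95% and 2.25%, and the interval of their difference spanned 0 (-1.34 to 1.35 percentage points).

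The genotype comparison was made peak by peak. In brain, 1846 of 2577 wild-type desert peaks overlapped a mutant brain peak, or were retained, which is 71.6% (69.9 to 73.3) against 81.5% of all wild-type brain peaks. In heart, 455 of 1261 were retained, or 36.1% (33.5 to 38.8) against 50.6% of all peaks. In lung, 1602 of 2796 were retained, or 57.3% (55.5 to 59.1) against 67.0% of all peaks. The numbers without an overlap were 731, 806 and 1194. The retained share of desert peaks was the lowest of the 4 classes in each organ, as the plot of retention by class shows. Other intergenic peaks were retained at 81.9%, 53.3% and 70.1%, so that desert minus other intergenic, in percentage points, was -10.3 for brain (Newcombe interval, -12.2 to -8.43), -17.2 in the heart (-20.1 to -14.3) and -12.8 in the lung (-14.9 to -10.9). The exact sign-flip permutation p over 3 organs was 0.25, the smallest possible.

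**Figure D2:**
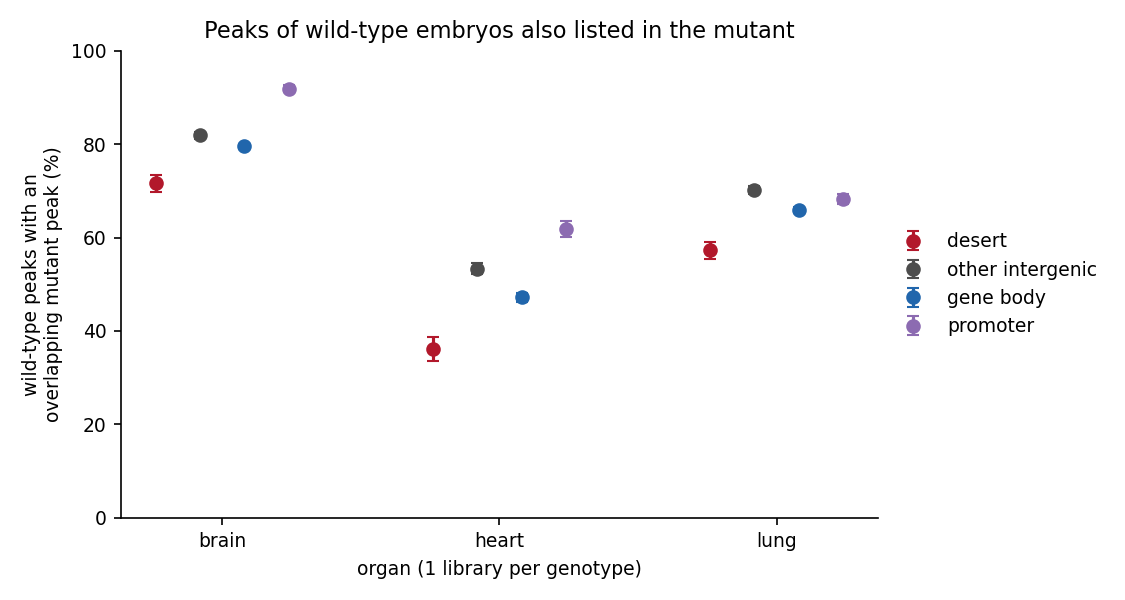
The share of wild-type CTCF peaks with an overlapping mutant peak in the same organ is plotted in percent for desert, other intergenic, gene-body and promoter peaks, with 95% Wilson intervals that cover counting error only. Desert peaks lie lowest in each organ, at 71.6% in brain, 36.1% in the heart and 57.3% in the lung.

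Peak strength moved with this result. Wild-type brain desert peaks that were retained had a median pileup of 53 fragments and those that were not had 21; the medians were 33 and 23 in the heart and 85 and 27 in the lung. Quintiles of pileup were taken over all wild-type brain peaks. In the weakest quintile 34.5% of desert peaks and 45.6% of other intergenic peaks were retained, and in the strongest quintile 98.3% and 99.5% were. Within deciles of pileup the difference was smaller but had the same sign, at -7.44 percentage points in brain, -8.23 in the heart and -4.79 in the lung. The lists of heart and lung also differ in length between genotypes. When both lists of an organ were restricted to the same number of peaks by q-value, 54.0% of desert peaks were retained in heart and 69.5% in lung, and the differences from other intergenic peaks were -17.5 and -11.5 percentage points.

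The reverse comparison gave mutant desert peaks without a wild-type overlap. These were 489 of 2332 in brain (21.0%, against 24.5% of all mutant brain peaks), 60 of 514 in heart (11.7%, against 7.12%) and 148 of 1749 in lung (8.46%, against 9.11%). They exceeded the share among other intergenic peaks by 4.15 percentage points in brain (2.39 to 6.00), 6.74 in the heart (4.14 to 9.87) and 2.41 in the lung (1.10 to 3.89), again with an exact sign-flip permutation p of 0.25 over 3 organs. Within deciles of pileup these differences were 0.89, 5.05 and 0.45 percentage points, and with lists of equal length they were 3.76, 14.2 and 3.55. Such peaks were weak, with median pileups of 16, 20.5 and 15.5 fragments, and 83.2%, 88.3% and 84.5% of them held a core motif.

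Since the mutated residue lies in one of the last fingers, retention was also compared between desert peaks with and without the upstream motif. In brain 66.9% of those with it (404 of 604) and 75.1% of those without it were retained, a difference of -8.18 percentage points (-12.5 to -4.02). The difference was -9.41 in the heart (-15.4 to -2.95) and -16.6 in the lung (-20.9 to -12.3). The same comparison with the mirrored window, which should hold no upstream motif, gave -4.68 in brain (-10.6 to 0.773), -1.94 in the heart (-10.3 to 7.19) and -14.7 in the lung (-20.4 to -8.95). At this threshold the lung values of both windows were close. With at most 1 mismatch the upstream differences were -13.4 in brain (238 peaks with a match, -20.0 to -7.16), -16.3 in the heart (81 peaks, -24.5 to -5.75) and -25.9 in the lung (276 peaks, -31.6 to -19.7). The mirrored window then held only 29, 11 and 34 matches and gave -0.63 (-18.8 to 12.4), -28.6 (-36.6 to 0.15) and -9.51 (-25.5 to 6.53). Each mirrored interval spans 0 and overlaps the upstream interval of its organ, and the difference between the windows was not tested. With at most 2 mismatches and standardised over deciles of pileup, the upstream differences were -4.62, -12.7 and -10.5 and the mirrored ones -0.67, -4.37 and -9.10.

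Among retained desert peaks, the change in pileup was compared in the same way. The log2 ratio of mutant over wild-type pileup, each over the background of its list, had a median of -0.45 in brain peaks with the upstream motif and -0.20 in those lacking it, -0.33 and -0.25 in the heart, and -0.75 and -0.45 in the lung. The differences were -0.25, -0.07 and -0.30 on the log2 scale, and those of the mirrored window were -0.02, -0.08 and -0.02. In brain and lung the upstream difference was thus the larger one, and in heart it was not. Over 200 kb from a start site the order turned in brain, at -0.25 upstream and -0.28 mirrored, and with at most 1 mismatch the lung values were close, at -0.38 and -0.36. In heart the order turned over 50 kb, at -0.10 upstream and -0.03 mirrored, and over 200 kb, at -0.03 and -0.01. With 3 organs the exact sign-flip permutation p of the upstream differences was 0.25, and the spike-in does not enter these lists, so no absolute change in binding can be read from the ratios.

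Merged sites showed in which organs a desert site was listed. Of 3398 desert sites with a wild-type peak, 1150 had one in every organ. That is 33.8% (32.3 to 35.5), against 40.0% of all wild-type sites, 47.4% of other intergenic sites, 38.8% of gene-body sites and 34.0% of promoter sites. Sites listed in brain only numbered 557, or 16.4% (15.2 to 17.7) of desert sites, against 9.64% of all sites and 7.25% of other intergenic sites. Lung-only sites numbered 745, or 21.9%, against 24.9% of all sites and 21.1% of other intergenic sites, and heart-only sites numbered 27, or 0.795%, against 0.675% and 0.446%. The excess of brain-only sites over other intergenic sites was 9.15 percentage points (7.86 to 10.5), while that of lung-only sites was 0.795 with an interval that spans 0 (-0.733 to 2.37).

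**Figure D3:**
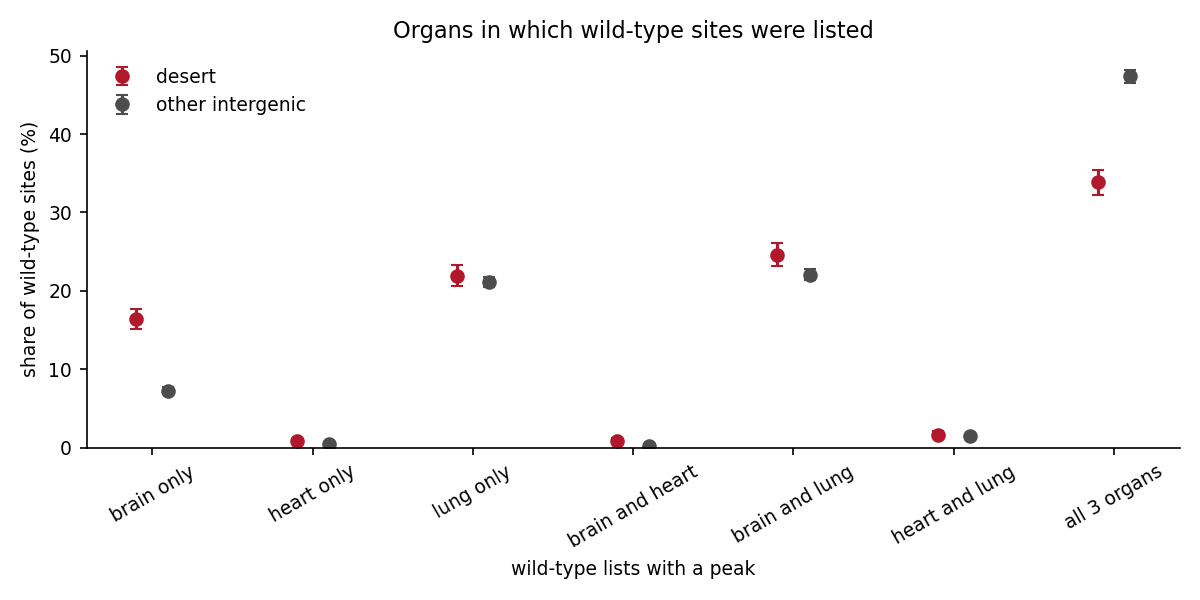
The share of wild-type CTCF sites in percent is plotted by the wild-type organs in which they were listed, for desert and other intergenic sites, with 95% Wilson intervals that cover counting error only. Brain-only sites made up 16.4% of desert and 7.25% of other intergenic sites, and sites of every organ 33.8% and 47.4%.

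Among the desert sites listed in wild-type brain, 21.7% (557 of 2570) were listed in brain only, against 9.42% of other intergenic brain sites. The difference was 12.3 percentage points (10.6 to 14.0) and 10.9 within deciles of brain pileup. For lung sites the difference was 3.80 percentage points (2.02 to 5.63), but -2.88 within deciles of lung pileup, so its direction depended on peak strength. The brain-only desert sites lay farther from genes, at a median of 305662 bp, than lung-only sites at 187910 bp or sites of all 6 lists at 172836 bp. Their median pileup in wild-type brain was 21 fragments, and 88.2% held a core motif. A mutant brain peak was also listed at 258 of the 557. Among all wild-type brain desert peaks 1846 of 2577 (71.6%) overlapped one, and among all wild-type brain peaks 81.5% did. Brain-only sites outside deserts were not compared in this way. Only 9 of the 27 heart-only desert sites held a core motif (33.3%), and their median pileup was 10 fragments.

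The sites of every wild-type organ gave the genotype comparison a common set. Of the 1150, 438 had a mutant peak in every organ as well, 489 in 2 organs, 133 in 1 and 90 in none. The 90 sites were 7.83% (6.41 to 9.52), against 3.15% of all sites with a wild-type peak in 3 organs, 3.15% of other intergenic and 0.724% of promoter sites. By organ, 11.3% (9.60 to 13.3) of the 1150 had no mutant peak in brain, 61.2% (58.4 to 64.0) in heart and 16.6% (14.6 to 18.9) in lung. Other intergenic sites of the same kind had none at 7.12%, 44.6% and 5.98%. The shares were 6.80%, 49.8% and 6.97% for gene-body sites and 1.59%, 32.1% and 2.82% for promoter sites.

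The 90 sites and the 438 sites were set apart by whether mutant peaks were called. Since retention rose with wild-type pileup, a difference in pileup between them was partly built into the choice. Their motifs and wild-type pileup are given as a description. The upstream motif with at most 2 mismatches was found at 28 of the 83 sites with a core motif among the 90 (33.7%, 24.5 to 44.4) and at 18.8% (15.4 to 22.7) of those among the 438, while the mirrored window gave 14.5% and 9.86%. With at most 1 mismatch the shares were 14.5% (12 sites) and 3.90% (17 sites), and the mirrored window gave 0 and 0.229%. Median wild-type pileup was 36, 20 and 61.5 fragments in brain, heart and lung at the 90 sites and 89.5, 34 and 140.5 at the 438. A core motif at p of 1e-05 was found at 64.4% of the 90 and 95.9% of the 438. Upstream motif, core motif and pileup therefore moved together, and their separate parts were not tested.

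At the 438 desert sites of all 6 lists (11.5% of desert sites, against 18.6% of all merged sites), the log2 ratio of mutant over wild-type pileup, each over background, had a median of 0.16 in brain, -0.26 in the heart and -0.21 in the lung. It was below 0 at 41.1% of these sites in brain, 72.8% in the heart and 71.5% in the lung. The same ratio at other intergenic sites of all 6 lists was 0.11, -0.28 and -0.14. Over all desert peaks shared by both genotypes of an organ (1846, 455 and 1602 peaks) the medians were -0.25, -0.26 and -0.52, so the positive brain value belongs to the sites chosen for a peak in every list. Sites without any wild-type peak numbered 426, or 11.1% of desert sites against 13.1% of all merged sites. Of these, 344 were listed in mutant brain, 98 in mutant lung and 4 in mutant heart, and 76.8% held a core motif.

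The sites farthest from genes that were listed everywhere lay in deserts of developmental transcription factors. The first, 1326716 bp from the start of Zeb2, a zinc-finger repressor of neural crest and brain development, lies between Zeb2 and Acvr2a. Its summit pileup was 95 fragments in wild-type and 56 in mutant brain, 18 and 15 in the heart, and 141 and 124 in the lung, so that raw pileup was lower in the mutant library of each organ. Fold enrichment over local background went the same way in brain (35.5 and 18.9) and heart but the other way in lung (18.3 in wild type and 41.9 in the mutant), where the wild-type background was raised. Both others lie between Celf2 and Gata3, a transcription factor of T-cell and inner-ear development. The site 1204414 bp from Gata3 had 67 and 96 fragments in brain, 15 and 26 in the heart, and 79 and 70 in the lung, higher in mutant brain and heart on both scales and, in mutant lung, lower by pileup and higher by fold enrichment (11.9 and 29.3). The site 1124260 bp from Gata3 had 77 and 55 in brain, 26 and 17 in the heart, and 121 and 69 in the lung, lower in the mutant by pileup, while fold enrichment was higher in mutant heart (5.86 and 6.16) and lung (13.1 and 16.8).

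The strongest desert sites were chosen by pileup rank over the 6 lists. The site between Smad2, a transducer of TGF-beta signals, and Skor2 lies 116437 bp from the Smad2 start. It had 395 fragments in wild-type and 621 in mutant brain, 103 and 129 in the heart, and 703 and 702 in the lung. The Caln1 site, 404746 bp from the start of this calcium-binding protein gene, had 360 and 478 in brain, 117 and 74 in the heart, and 667 and 425 in the lung. The site 212119 bp from the start of Epb41l4a had 243 and 452 in brain, 74 and 99 in the heart, and 423 and 448 in the lung. Raw brain pileup was thus higher in the mutant at these 3 sites, but at the Smad2 site brain fold enrichment was lower, at 143 in wild type and 114 in the mutant. In lung, fold enrichment was higher in the mutant at the 3 sites, for example 13.4 in wild type and 248 in the mutant at the Smad2 site, so the direction of a single site depended on the scale and no change in binding is read from it.

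The sites chosen for a peak in every wild-type organ and none in the mutant are given as a description. The Nnt site lies between Fgf10, a growth factor of lung and limb buds, and Nnt, a mitochondrial transhydrogenase, 125327 bp from the Nnt start. It had 77, 36 and 128 fragments in wild-type brain, heart and lung. The Camk1g site lies between this calmodulin-dependent kinase gene and Plxna2, a semaphorin receptor, and had 129, 29 and 169 fragments. The Insc site lies between Insc, an adaptor of spindle orientation, and the transcription factor gene Sox6, and had 53, 48 and 125. In the opposite direction, a site between H2al1j and Bcor on the X chromosome had no wild-type peak and 19, 18 and 14 fragments in mutant brain, heart and lung. A site between Gm9376 and Abcc4 had 45 fragments in mutant brain and 14 in mutant lung, with no peak in the other 4 lists.

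**Figure D4:**
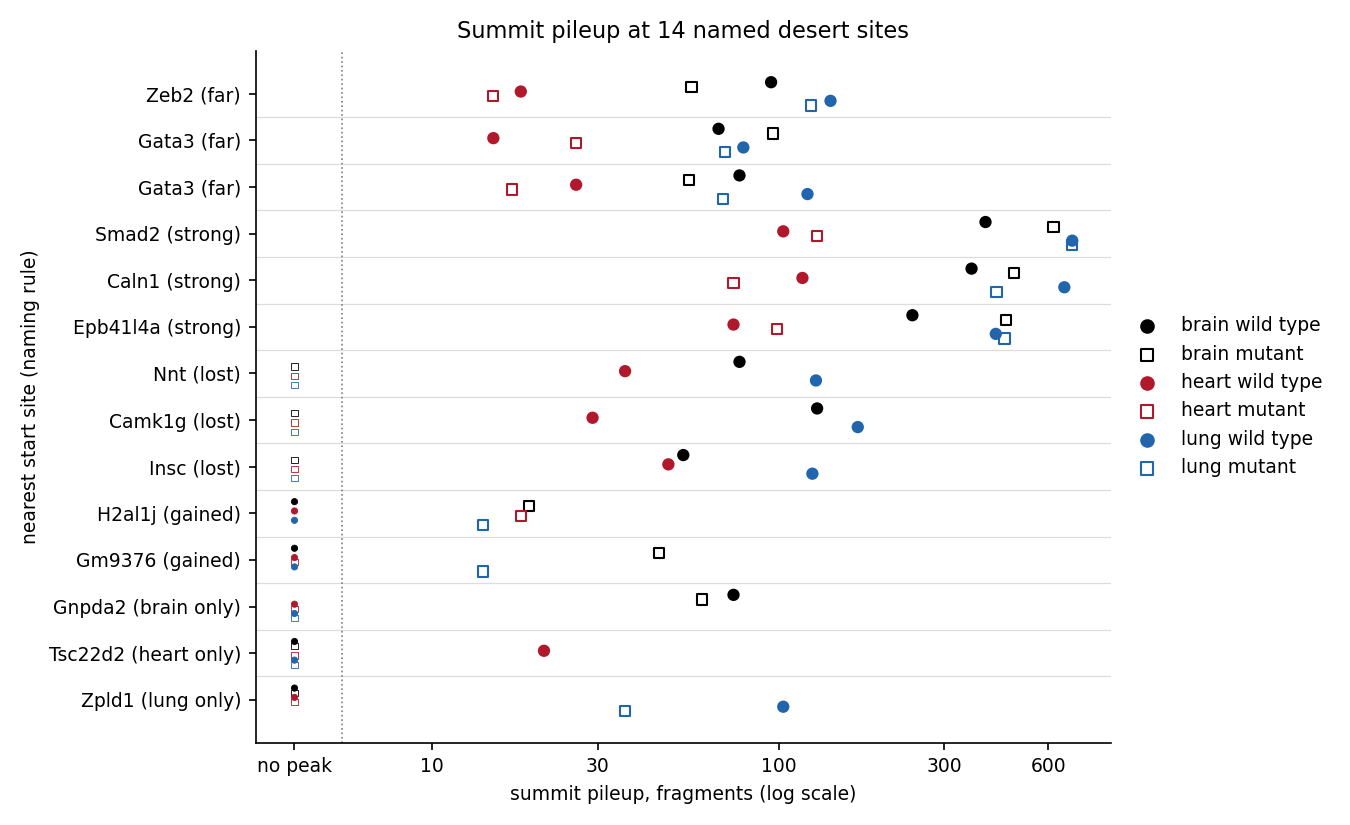
Summit pileup in fragments on a log axis is plotted for 14 desert sites named by their nearest start site and the rule that chose them, with wild-type libraries filled and mutant libraries open, and small symbols at the left where a list had no peak. The Smad2 site reached 703 fragments in wild-type lung, and the Nnt, Camk1g and Insc sites had wild-type peaks only, as their rule fixes.

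Among sites listed in 1 wild-type organ, the strongest in brain lies between Gnpda2 and Gabrg1, a GABA-A receptor subunit gene, with 74 fragments in wild-type and 60 in mutant brain and no peak in heart or lung. The strongest in lung lies between Zpld1 and Nfkbiz, with 103 fragments in wild-type and 36 in mutant lung. The strongest in heart lies between Pfn2, an actin-binding profilin gene, and Tsc22d2, with 21 fragments in wild-type heart, no peak in any other list and no core motif.

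Desert sites were unevenly spread over deserts, defined as the gap between neighbouring protein-coding gene bodies. Of 2051 deserts with sequence under the rule, 1168 (56.9%) held a site. Density was highest in short deserts, at 13.7 merged sites per Mb where under 0.1 Mb met the rule, 4.63 at 0.5 to 1 Mb and 2.05 above 2 Mb. The richest desert, between the olfactory receptor gene Olfr1507 and Dad1, an oligosaccharyltransferase subunit gene, held 30 sites. It spans 201 T-cell receptor gene segments, which the annotation does not type as protein coding, so by the rule it counts as a desert although it is not empty of genes. It held 21 peaks in wild-type and 16 in mutant brain, 11 and 7 in the heart, and 25 and 11 in the lung. Its 30 sites all held a core motif, 26 on the plus and 4 on the minus strand.

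The next richest, between Tmem132b and Tmem132c, genes of transmembrane proteins, held 25 sites and was mostly a brain desert. It had 18 peaks in wild-type and 18 in mutant brain, 1 and 0 in the heart, and 3 and 2 in the lung. Of the 25 sites, 14 were listed in wild-type brain only and 0 in every wild-type organ, although each held a core motif. Pileup in wild-type brain ran from 12 to 56 fragments with a median of 21.5, and 12 of the 25 summit windows were mostly repeat, a higher count than the 0 of 30 between Olfr1507 and Dad1. The desert between Nphp4 and Ajap1 had a like spread over organs, with 12 and 15 peaks in brain, 2 and 0 in the heart, and 4 and 2 in the lung, and 8 of its 16 sites listed in wild-type brain only. The other 3 deserts of 16 sites lay between Sdk2 and Rpl38, Matn1 and Ptpru, and Npvf and Nfe2l3, and in these the wild-type lung list had as many peaks as wild-type brain or more.

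**Figure D5:**
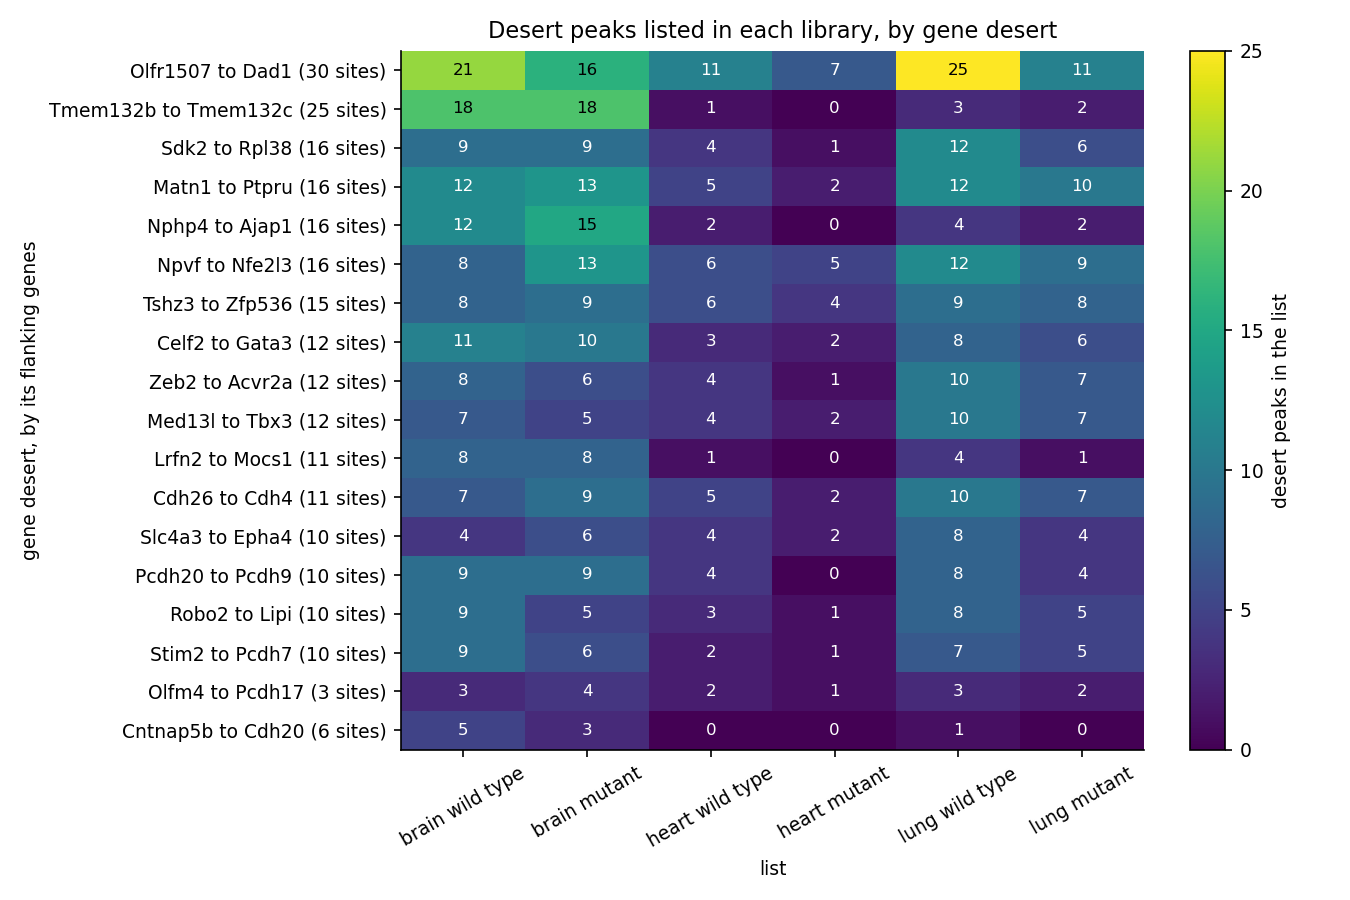
The number of desert peaks in each list is shown by colour and in digits for the named gene deserts, with the number of merged sites beside each pair of flanking genes. The desert from Tmem132b to Tmem132c had 18 peaks in each brain list and at most 3 in any other list.

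Deserts were also grouped by the genes beside them, from lists of 250 developmental regulators and 143 neural adhesion and synaptic genes, of which 160 and 128 bordered a desert. Beside developmental regulators, 202 deserts held 404 peaks in wild-type brain, 214 in the heart and 477 in the lung, or 5.01, 2.65 and 5.91 per Mb, against 3.14, 1.51 and 3.35 in other deserts. The log2 ratio was 0.81 ± 0.08 (SD, n = 6 lists) and positive in 6 of 6 lists (exact sign-flip permutation p = 0.031, adjusted p = 0.0813), and it was 0.46 with deserts over 50 kb from a start site. Beside adhesion and synaptic genes, 197 deserts held 2.33, 0.976 and 1.89 peaks per Mb, against 3.67, 1.85 and 4.20, with a log2 ratio of -1.03 ± 0.27 (SD, n = 6 lists), negative in 6 of 6 (p = 0.031 by the same exact test, adjusted p = 0.0813).

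Desert length moved with this contrast. The median desert beside an adhesion or synaptic gene had 0.664 Mb under the rule and that beside a developmental regulator 0.245 Mb. Deserts of 0.1 to 0.5 Mb held 11.0 merged sites per Mb beside developmental regulators, 8.51 beside adhesion and synaptic genes and 7.66 beside neither. At 0.5 to 1 Mb the densities were 7.91, 4.38 and 3.94, and above 1 Mb they were 4.28, 2.28 and 2.72. Developmental deserts were thus denser in these 3 length ranges, and shorter deserts were not compared. By merged sites, adhesion deserts were sparser than those beside neither list above 1 Mb and not in the shorter ranges. By single lists they were also sparser at 0.1 to 0.5 Mb in heart and lung, with 2.15 against 2.63 peaks per Mb in wild-type heart and 4.87 against 5.96 in wild-type lung, but not in brain, with 5.70 against 4.73 in wild type.

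Wild-type peaks in developmental deserts were retained in the mutant at 72.5% in brain, 38.8% in the heart and 58.3% in the lung, which differed from other deserts by 1.06, 3.25 and 1.19 percentage points with intervals that each span 0. The mean of these, 1.83, turned to -0.87 with deserts over 50 kb from a start site. In adhesion deserts the shares were 67.8%, 29.2% and 50.9%, lower than in other deserts in each organ. Adhesion minus other was -4.72 percentage points in brain (-9.50 to -0.169), -8.16 in the heart (-14.8 to -0.797) and -7.32 in the lung (-12.8 to -1.90). Adhesion deserts were also longer, with a median of 0.664 Mb under the rule against 0.245 Mb beside developmental regulators. The part of desert length, distance and pileup in this retention difference was not tested. The exact sign-flip permutation p over 3 organs was 0.25, the smallest possible, for each of these gene lists. Beside developmental regulators the richest deserts were Npvf to Nfe2l3 with 16 sites, Tshz3 to Zfp536 with 15, and Celf2 to Gata3, Zeb2 to Acvr2a and Med13l to Tbx3 with 12 each. Among adhesion deserts Lrfn2 to Mocs1 and Cdh26 to Cdh4 held 11 sites each, and 4 deserts tied at 10. The desert from Pcdh20 to Pcdh9, a pair of protocadherin genes, is one of those 4 and among the longest, with 4.05 Mb under the rule. It had 9 peaks in wild-type and 9 in mutant brain, 4 and 0 in the heart, and 8 and 4 in the lung. Some long deserts were empty, and 3.10 Mb between Diaph2 and Pcdh19 on the X chromosome and 2.51 Mb between Cox7c and Edil3 held no site in any list.

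The strand of the core motif was compared between neighbouring desert sites of the same desert. Of 465 such pairs among sites listed in every wild-type organ, 10.8% (8.25 to 13.9) were convergent, 28.2% (24.3 to 32.4) were divergent and 61.1% (56.6 to 65.4) pointed the same way. Among 505 pairs of sites listed in 1 wild-type organ the shares were 22.2% (18.8 to 26.0), 21.6% (18.2 to 25.4) and 56.2% (51.9 to 60.5). Other intergenic neighbours listed in every organ were convergent at 13.7%, divergent at 33.1% and of 1 direction at 53.1%. Of the 1120 desert motifs listed in every organ, 40.4% (37.5 to 43.3) pointed to the nearer end of their desert against 44.1% (42.8 to 45.3) of the other intergenic motifs listed in every organ, so that most pointed away from it in both classes. Neighbouring pairs share sites and are not independent, and no test was made.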

How the data were processed

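CTCF ChIP-seq of 3 organs and 2 genotypes gave 6 peak lists, 1 per library; the 6 input libraries were not used here. Per the labels and the study's methods, the authors used Trim Galore for trimming, Bowtie2 for alignment to combined mm10 and hg38 sequence, uniquely mapped reads only, and MACS2 for peaks of each library; the control library and effective genome size were not given in the sources used here. The authors' fold enrichment is a ratio of summit pileup to local background, each plus 1, and p-values and q-values were deposited as −log10 values. The deposited score was not used. Lists held 11760 to 46373 lines, and lines sharing a region were counted once, at the summit of highest fold enrichment. From fold and p-value a whole-number pileup and local background were solved. For 100% of regions the solution returned the deposited −log10 p within a small relative error. The lowest background of a list served as its genome background. Precision is limited by the number of peaks.

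Classes came from the GENCODE M21 basic annotation, which has 21951 protein-coding genes. The core motif matrix of 19 columns was learned from 1979 of the 2000 most enriched peaks of wild-type brain. Overlap meant at least 1 bp. Shares have 95% Wilson and differences 95% Newcombe intervals, and tests were exact two-sided sign-flip permutation tests over lists or organs, adjusted over 13 tests with statsmodels 0.14.6. Named sites were, by rule, the farthest, strongest, lost, mutant-only and single-organ desert sites, and the deserts richest in sites, longest, or longest without a site. The members, gene lists and rules were chosen with earlier results of these data known. The steps were tested on simulated data. Alternatives are given under the dependence on processing. Python 3.11.15, numpy 2.4.6, scipy 1.17.1 and pandas 2.3.3 were used.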

Additional observations from a re-analysis of the deposited data

Results flagged for a closer look

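At desert sites listed in all 6 libraries, the log2 ratio of mutant over wild-type pileup, each over background, had a median of 0.16 in brain and the opposite sign in heart (-0.26) and lung (-0.21). Over all desert peaks shared by both genotypes the medians were -0.25, -0.26 and -0.52, so the opposite sign was seen only at the sites selected for a peak in all 6 lists. This difference between organs was not tested, since each organ had 1 library per genotype.

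The local background at wild-type lung desert peaks was 2.04 times the genome background of that list, a signal outside the peak comparison that stood above the 1.00 to 1.13 times of desert peaks in the other lists. In the same library it was 2.72 times at other intergenic and 2.38 times at gene-body peaks, so it was not particular to deserts. Its part in the number of lung peaks was not tested.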

How the results depend on the processing

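Of 154 recomputed values, 140 kept their direction or stayed within their interval or within 1.5 times their count, 12 without a test moved and 2 reversed. With desert sites over 50 kb from a start site, 6523 merged sites remained, 37.8% of those with a wild-type peak were listed in every organ, and 75.1%, 42.3% and 61.1% of desert peaks were retained in brain, heart and lung. Over 200 kb the values were 1955 sites, 29.3%, 68.3%, 33.2% and 52.2%. With lists of equal length, retention was 54.0% in heart and 69.5% in lung. The mean retention difference of deserts beside developmental regulators, 1.83 percentage points, reversed to -0.87 over 50 kb. The comparisons of brain-only, heart-only and lung-only sites among the sites of 1 organ, with their deciles, were chosen after seeing the data. So were the deciles for retention by upstream motif and the stricter core motif for the upstream motif results. The difference in lung-only sites reversed to -2.88 within deciles of pileup. The cause was not tested for these changes. The difference in retention between desert and other intergenic peaks, -13.5 percentage points on average, was -6.82 within deciles of pileup, and that in mutant-only peaks went from 4.44 to 2.13 and, with lists of equal length, to 7.16 (heart from 6.74 to 14.2). The mean retention difference by upstream motif went from -11.4 to -18.5 percentage points with at most 1 mismatch. The upstream motif difference went from -4.59 to -2.74 over 50 kb and -3.02 with at most 1 mismatch, and the core motif difference from -0.89 to -0.22 within deciles and -0.54 at a −log10 q of at least 5. The density log2 ratio beside developmental regulators went from 0.81 to 0.46 over 50 kb, and their retention difference to 5.51 over 200 kb and 2.91 outside protein-coding gene bodies only. The mean difference in desert share went from -1.17 to -0.71 over 200 kb, and that in mutant-only peaks to 2.24 over 50 kb. The smallest adjusted p over the settings was 0.0677, the lowest that the 13 tests allow, so no setting could move a test across 0.05 and staying on its side says nothing of stability.

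Leaving out each library in turn, the density log2 ratio ran from -2.80 to -2.65, strength from -0.40 to -0.32, the core motif difference from -1.20 to -0.65 and the upstream motif difference from -4.92 to -4.22 percentage points. The density log2 ratio ran from 0.79 to 0.83 beside developmental regulators and from -1.11 to -0.97 beside adhesion and synaptic genes. Mutant and wild type were paired by organ in each test over 3 organs, and no block by replicate number could be fitted, since each group had 1 library. Peak lists do not show sites below the peak caller's threshold, so a site without a peak may still be bound.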
